A study of Danio rerio with 39 samples.

Results

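In this time course 14165 microarray probes were detected in every zebrafish embryo sample. Of these, 103 were lower with dioxin in all 19 matched pairs and by a mean of at least 0.2 (log2) on each day. These 103 probes are the members described here. A probe was a member when the scanner software marked its embryo signal as well above background on all 39 arrays (called detected below), when the TCDD value was below the DMSO value of the same replicate and day in every pair, and when the mean difference was -0.2 or lower, on the log2 scale, on each of days 1 to 5. They made up 0.727% of the detected probes. The array held 21495 probes in all. The same rule turned round, higher in all 19 pairs and 0.2 or higher on each day, was met by 16 probes, or 0.113%. The members were chosen by these TCDD minus DMSO differences, so the differences are given as a description and carry no test.

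Embryos of the AB* zebrafish strain were exposed for 1 h, between 4 and 5 h after fertilization, either to 1 ng/mL TCDD or to the vehicle DMSO alone, and after rinsing were kept at 15 to 20 in each glass vial. TCDD is the best studied dioxin. Whole embryos were pooled, so each array carries RNA from all tissues of several animals, and fewer cells of a type cannot be told apart from less RNA per cell. There were 4 independent experiments (replicates 1 to 4), with 4 TCDD and 4 DMSO arrays on each day except day 2, where 3 TCDD arrays stood beside 4 DMSO arrays. Each array set embryo RNA against RNA of Zf4, an established zebrafish embryonic fibroblast line that served as the common reference, so a log2 ratio of 0 means equal signal in embryo and reference. The title of the series speaks of exposure over the days themselves, whereas the protocol and the methods give the single early exposure stated above.

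TCDD acts by binding the aryl hydrocarbon receptor (AHR), a ligand-activated transcription factor. The bound receptor moves to the nucleus, pairs with an ARNT protein and binds short response elements near its target genes, of which cyp1a, a xenobiotic-metabolizing cytochrome P450, is the best known. Zebrafish embryos exposed to TCDD are known for heart malformation, edema, reduced jaw cartilage and loss of circulation, and a fall in transcript level can precede or follow such changes in tissue make-up.

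The exposure labels held on every array pair. The cyp1a probe was higher with TCDD in 19 of 19 pairs, by 2.20 to 7.84 on the log2 scale, which corresponds to mean folds of 19.9, 80.3, 97.7, 79.1 and 52.6 on days 1 to 5. On a single array, between 16329 and 18624 of the 21495 probes gave an embryo signal well above background. The number of arrays, not a read depth, limits the precision of these values. The file headers place the arrays in 3 scan batches of 4, 24 and 11 arrays, and 17 of the 19 pairs had both arrays in the same batch.

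The mean difference over the 19 pairs had a median of -0.57 among the members, which left 67.3% of the control level, and ranged between -1.10 and -0.28. The median over all detected probes was 0.02. A mean difference of -0.8 or lower was found for 10 members, one between -0.8 and -0.6 for 38, one between -0.6 and -0.4 for 43, and a smaller one for 12. In the order of the 5 days, the median over members was -0.37, -0.61, -0.72, -0.54 and -0.61. Day 3 held the largest fall for 54 members, with 24 more on day 2 and 22 on day 5, and 76 members had their smallest fall on day 1. The day 3 means include the replicate 1 pair, whose arrays came from different scan batches and whose median over members was -0.92. In the day 3 pairs of replicates 2 to 4 that median was -0.75, -0.78 and -0.37, and day 2 had no replicate 1 pair. The part of the replicate 1 pair in the day 3 values was not tested.

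Pairs differed in how far the members stood below zero. The median over members was lowest in the day 3 pair of replicate 1, at -0.92, and closest to zero in the day 1 pair of replicate 2, at -0.11. Over the pairs of 1 replicate experiment the medians were -0.63, -0.55, -0.60 and -0.51 for replicates 1 to 4. In the 17 pairs with both arrays in the same scan batch the median was -0.55, and within batches 1, 2 and 3, which held 1, 11 and 5 such pairs, it was -0.31, -0.58 and -0.51. The day 3 pair of replicate 1 and the day 5 pair of replicate 3 were the 2 pairs that crossed batches.

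**Figure D1:**
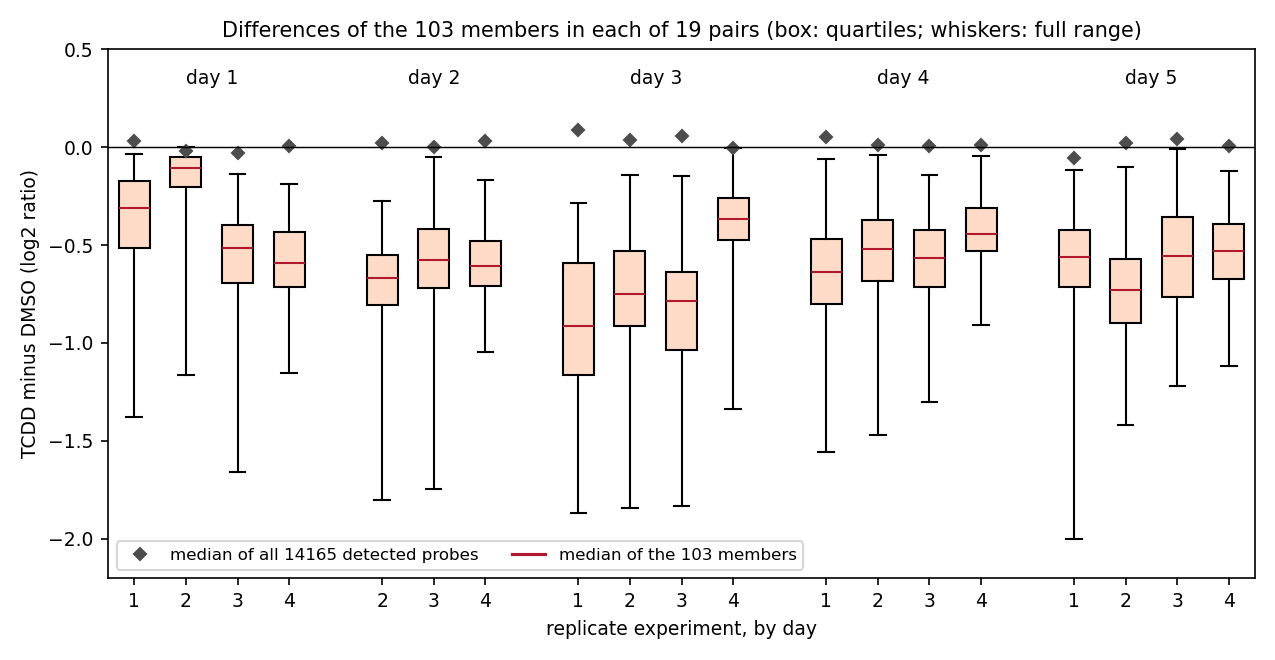
TCDD minus DMSO difference of the 103 members (vertical axis, log2 ratio) in each of the 19 pairs, by day and replicate experiment; boxes are quartiles, whiskers the full range, and diamonds the median of all 14165 detected probes. Every whisker ends below 0, as the rule demands, and the box medians run between -0.92 (day 3, replicate 1) and -0.11 (day 1, replicate 2), whereas the diamonds lie near 0.

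Averaged over the pairs, the difference lay in the embryo channel. The processed embryo signal of the members was lower with TCDD by a median of 0.55 on the log2 scale, with all 103 members below 0 (-1.12 to -0.20). Their reference signal, which comes from the same Zf4 RNA on TCDD and DMSO arrays, differed by a median of 0.02 (-0.11 to 0.16). In single pairs, with the embryo channel alone and normalized between arrays, 46 of the 103 members stayed below 0 in all pairs. All 103 members were also detected in the Zf4 reference on each of the 39 arrays, and 1 of their 4017 spots was marked as an outlier and 0 as saturated. The members were not unusually dim: their median log2 embryo signal was 10.26, and that of all detected probes was 10.22. The outermost members lay in rows 1 and 105 and columns 1 and 212 of an array of 105 rows and 215 columns. How evenly the members were placed between these was not examined.

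Levels of the members against the reference are given per array in the plot of array medians. On day 1 the median log2 ratio over members was -0.68, -0.68, -0.87 and -0.71 on the TCDD arrays of replicates 1 to 4, and the DMSO arrays lay between -0.59 and -0.12. On day 5 the TCDD arrays lay between -0.60 and -0.32 and the DMSO arrays between 0.01 and 0.20. Group means of these array medians were -0.73 ± 0.09 in TCDD embryos and -0.35 ± 0.19 in DMSO embryos on day 1 (SD, n = 4 each), and -0.48 ± 0.12 in TCDD embryos and 0.13 ± 0.08 in DMSO embryos on day 5 (SD, n = 4 each). TCDD and DMSO arrays of the same day did not overlap in this median, which the choice of members favours.

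**Figure D2:**
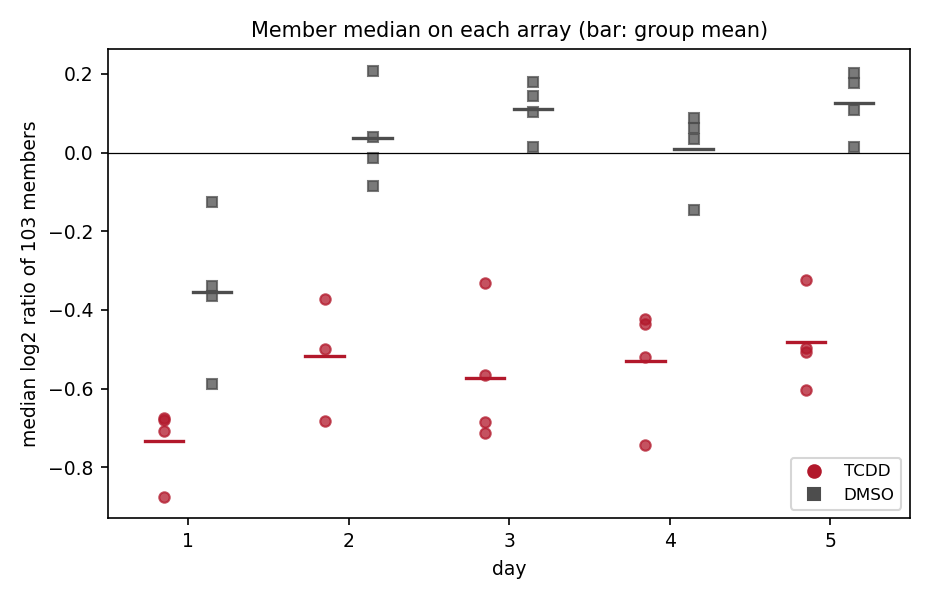
Median log2 ratio to the Zf4 reference over the 103 members on each array (vertical axis) by day, with TCDD arrays as circles left of DMSO arrays as squares; bars are group means of 4 arrays (3 for TCDD on day 2). DMSO arrays lay between -0.59 and -0.12 on day 1 and between 0.01 and 0.20 on day 5, and TCDD arrays lay below the DMSO arrays of the same day throughout.

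Few of the members are well annotated genes. In the array annotation 79 members (76.7%) were named after a single EST, an EST clone or an assembled EST cluster (TC), against 36.9% of all detected probes. Some of these have a current gene symbol, such as wu:fd10f03 (sfpq). A current gene symbol could be given to 23 members (22.3%), against 56.0% of detected probes. Of the 56 members named after a single EST, 15 (26.8%) came from neuronal, adult brain, retina or olfactory libraries, a share that was 8.57% among the 2776 detected probes named in that way. ESTs marked as read from the 3' end were 41.1% of the 56 and 30.1% of the 2776. No test was made of these shares. In DMSO embryos 97 members (94.2%) had a mean level within 1 log2 unit of the reference, which was true of 64.9% of detected probes.

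Of the 10 members with a mean difference of -0.8 or lower, 8 were ESTs without a gene name and the other 2 were pbx1a and ack1, described below. Array values of members are given mostly for day 3, where the median fall over members was largest, so gaps between the groups are favoured. The groups of a member overlapped more often on day 1. BM024829, a 3' EST from an adult brain library, had day 3 log2 ratios of -0.81, -0.80, -0.76 and 0.08 in TCDD embryos, against 0.44, 1.04, 0.82 and 0.57 in DMSO embryos. The replicate 4 value was the highest among TCDD embryos, yet the groups did not overlap, and the 19 pair differences ran between -1.84 and -0.49 with a median of -1.05. CO353413, from an adult testis library, had 0.28, 0.63, 0.29 and 1.46 in TCDD embryos on day 3, against 2.15, 1.75, 2.12 and 2.12 in DMSO embryos, again with replicate 4 highest after TCDD. Its pair differences ran between -1.87 and -0.56, with a median of -0.97. BI703442 and BI865715, both 3' ESTs from a neuronal library, had pair differences between -1.80 and -0.32 (median -1.01) and between -1.73 and -0.11 (median -1.03). BI865715 had log2 ratios of -1.59, -1.23, -1.27 and -0.73 in TCDD embryos on day 3, against 0.14, 0.07, 0.08 and 0.11 in DMSO embryos, so that the DMSO embryos lay within a narrow band. CK397245, an EST from a mixed cDNA collection, ran between -2.00 and -0.31 with a median of -0.95. These probes have no second probe on the array that could be linked to them.

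Altogether 54 members were single ESTs or cDNAs without a current symbol, and their mean differences ran between -1.10 and -0.34 with a median of -0.60. The 8 with a mean of -0.8 or lower were the 5 named above with BI839867 (an adult brain EST, -0.94), CO350465 (adult ovary, -0.89) and CO355987 (adult testis, -0.87). A group of 20 lay between -0.8 and -0.6, namely AI545556, BE016105, CK361506, AI545063, BM026555, CK395615, CK398974, CK360825, BI845355, AW826277, sb:cb113, BI879676, AI384703, AI942585, CK395774, CK706499, CD606048, wu:fc23d08, AW116739 and BI709849. Another 22 lay between -0.6 and -0.4, namely BM102255, BG883810, wu:fk51b04, BI846295, wu:fc32g03, wu:fj81d02, BI842186, CO351447, CN510250, BM778542, id:ibd3021, BC083251, AL926931, BC071454, AL724225, wu:fk25h09, wu:fa04f03, AW076817, BI841869, AI722997, AW059322 and wu:fc14f08. The last 4 were BQ450576, AI641460, CK700392 and BI865577. Among the 54, the 14 from neural libraries had a median of -0.69, and the 8 of them from neuronal libraries -0.64. The 6 from ovary or testis libraries had a median of -0.74, and the remaining groups of libraries had medians between -0.66 and -0.53. A library names where a clone was made, and expression by tissue was not measured. The other 49 members, with a symbol, a TC or an Ensembl entry, ran between -1.02 and -0.28 with a median of -0.54.

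Transcription factors were among the annotated members. Here and in the paragraphs on further annotations, each value is that of the member probe alone. Where the same gene had other probes, these are set beside the member below, and their mean differences had a median of -0.01. The homeodomain protein pbx1a, a cofactor of Hox proteins, had the largest mean fall of a member with a gene symbol. Its day 3 log2 ratios were -1.45, -0.74, -1.01 and -0.57 in TCDD embryos, against 0.25, 0.92, 0.46 and 0.11 in DMSO embryos. All TCDD values lay below all DMSO values, and the mean difference was -1.38 on that day and -1.02 over the 19 pairs. Other pbx1a probes, described below, averaged -0.20 (A_15_P117075) and -0.19 (A_15_P113250) over the pairs. The estrogen receptor esr1 had -0.58, -0.41, -0.68 and -0.24 in TCDD embryos on day 3, against 0.26, 0.44, 0.48 and -0.01 in DMSO embryos, and its mean difference over the pairs was -0.61. On day 1 the esr1 values were -0.36, -0.44, -0.68 and -0.71 in TCDD embryos, against -0.18, -0.42, -0.34 and -0.17 in DMSO embryos, so the groups overlapped there. Such overlap was more common among members on day 1 than on day 3. The SoxF factor sox7, which acts in blood vessel development, averaged -0.60 over the pairs, with its fall largest on day 3 at -0.86. The second sox7 probe, given below, was above 0 on average. The member named arnt2, whose product is a dimerization partner of AHR and other bHLH-PAS proteins, is described with its other probes below. A cluster whose description names the cAMP-inducible repressor ICER (TC287632) averaged -0.49.

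Members described as signalling, adhesion and matrix proteins had mean differences between -0.81 and -0.28. The ephrin ligand efna3, which guides growing axons, had day 3 log2 ratios of -0.88, -0.82, -0.95 and -0.55 in TCDD embryos, against 0.07, -0.07, -0.07 and -0.16 in DMSO embryos. These groups did not overlap, and the mean over the pairs was -0.55. The transmembrane protein heg, which is required for the normal shape of the zebrafish heart and its vessels, averaged -0.54, with -0.45, -0.15, -0.23 and 0.14 in TCDD embryos on day 3 against 0.41, 0.60, 0.48 and 0.38 in DMSO embryos. The non-receptor tyrosine kinase ack1 (now tnk1) averaged -0.81, and the hyaluronan link protein hapln3 (zgc:85609) -0.72. A cluster described as bone morphogenetic protein 7 (TC283859) averaged -0.56. The coagulation inhibitor tfpia had the smallest fall of all members, with a mean of -0.28 and pair differences between -0.46 and -0.16.

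Muscle and heart annotations were few. The member probe of the fast skeletal troponin I gene tnni2b.2 (zgc:92191) averaged -0.72, a cluster described as ventricular myosin light chain 2 (TC285473) -0.58, a plasma membrane calcium ATPase cluster (TC280365) -0.50, and one described as a stretch regulated skeletal muscle protein (TC290157) -0.63. Other tnni2b.2 probes, described below, had mean differences of 0.19, 0.00 and 0.11. The cluster described as vitellogenin 1 (TC268196), the egg yolk precursor, averaged -0.68.

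Metabolic members covered lipid, sugar and mitochondrial steps. The fatty acid elongase elovl5 averaged -0.60, and galk2 (zgc:101686), a sugar kinase of the galactokinase family, -0.57. The ATP synthase subunit atp5mc1 (zgc:73293) averaged -0.66, the mitochondrial acyl carrier protein ndufab1a (wu:fd99d01) -0.54, and a cluster described as CHCHD4 (TC282465), part of the mitochondrial import machinery, -0.65. Of the other atp5mc1 probes, described below, A_15_P100672 averaged 0.00. Smaller means were found for pank4 (zgc:66285), nudt3a (zgc:55746) and nipa2 (zgc:66088), a magnesium transporter, at -0.39, -0.42 and -0.43. A cluster described as selenoprotein T, 1a (TC268920) averaged -0.48.

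Members tied to RNA, protein turnover and cell death formed the remainder. The splicing factor sfpq (wu:fd10f03) averaged -0.70, with its other probes given below, and a cluster described as the translational repressor Pum2 (TC293897) -0.62. The chaperone cofactors dnajc7 (wu:fj58b08) and bag2 averaged -0.48 and -0.42. Cell death annotations were gsdmeb (dfna5), a gasdermin, at -0.67, a cluster described as the death effector protein Dedd1 (TC270852) at -0.49, one similar to mouse caspase 2 (TC286110) at -0.44, and the apoptosis inhibitor api5 at -0.39. The phosphatase inhibitor cip2a averaged -0.68 and a cluster described as cathepsin L, a (TC277492) -0.31. Entries described as katanin (ENSDART00000027822), TBC1D17 (TC270190) and a multiple ankyrin repeat protein (TC292058) averaged -0.62, -0.45 and -0.40. The other clusters and transcripts were TC274542 (-0.75), TC300965 (-0.70), TC285035 (-0.69), TC283059 (-0.65), TC293887 (-0.45), TC293152 (-0.45), TC280866 (-0.41), ENSDART00000017731 (-0.39), ENSDART00000006384 (-0.36) and TC293457 (-0.32).

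The border of the list was not sharp. Inside it, the pair differences nearest to 0 were -0.0001 for CK700392, -0.0015 for BG883810 and -0.0021 for wu:fc23d08, and the day means nearest to -0.2 were -0.21 for tfpia, -0.21 for AW059322 and -0.22 for wu:fa04f03. Just outside were 180 probes with every day mean at -0.2 or lower that failed in at least 1 pair, 119 of them in exactly 1 pair. The nearest were BM858385, BQ264118 and BI868116, whose highest pair differences were 0.0052, 0.0067 and 0.0090. A further 30 probes were below 0 in all pairs but had a day mean above -0.2, the nearest being CD595714 (-0.18), myo7a (-0.18) and CK000073 (-0.18).

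The other probes of the same genes give values that the choice of members did not use, although they were read on the same arrays from the same RNA. Through a shared accession, name or current symbol, 42 other probes were linked to 26 members, and 35 of the 42 were themselves detected on every array. The median of their mean differences was -0.01, against -0.51 for the 26 members, and 21 of the 42 had a mean below 0. In a limma fit over all probes with Benjamini-Hochberg adjustment on each day, 5 of the 42 were lower with TCDD on at least 1 day, where 3.31% of all probes were, and 3 were higher, where 4.54% were. The remaining 34 were called in neither direction. By day, 0, 1, 2, 1 and 4 of the 42 were lower on days 1 to 5, where 0.00931%, 0.563%, 1.68%, 0.684% and 2.63% of all probes were. The 5 lower probes belonged to 4 genes. At an unadjusted p below 0.05, 12 of the 42 were lower and 12 higher on at least 1 day, where 15.8% of all probes were lower and 19.7% higher. A probe that misses the threshold is not thereby shown to be equal in both groups. No other probe was below 0 in all 19 pairs.

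The closest match was galk2. Its second probe (A_15_P109605) had log2 ratios of -0.63, -0.59, -0.73 and -0.32 in TCDD embryos on day 3, against 0.16, 0.23, 0.28 and 0.10 in DMSO embryos, and the member had -0.53, -0.46, -0.66 and -0.33 in TCDD embryos, against 0.32, 0.31, 0.40 and 0.15 in DMSO embryos. Neither probe's groups overlapped. The second probe was below 0 in 18 of 19 pairs and fell by 0.61, 0.76, 0.59 and 0.50 on days 2 to 5 (adjusted p 0.0239, 0.000256, 0.0104 and 0.00917 by limma, n = 4 arrays a group, 3 for TCDD on day 2). On day 1 its difference was -0.39. The day 3 call held in each fit with 1 replicate left out, whereas the day 2 call was lost without replicate 2, 3 or 4 (adjusted p 0.142 to 0.457 by limma), the day 4 call without replicate 1, 2 or 3 (0.0989 to 0.205) and the day 5 call without replicate 1 or 2 (0.0664 and 0.0613). After group means were removed, the 2 galk2 probes correlated at r = 0.971 across the 20 DMSO arrays, given as a description since both were read on the same arrays. Probe sequences were not used here, so whether the 2 probes overlap was not examined.

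Both further Dedd1 probes were lower on day 5. The probe A_15_P103937 had log2 ratios of 2.04, 2.14, 2.08 and 1.78 in TCDD embryos on day 5, against 2.83, 2.52, 2.59 and 3.02 in DMSO embryos, without overlap. It fell by 0.73 (SE 0.14, adjusted p 0.00108 by limma), and A_15_P109901 fell by 0.67 (SE 0.17, adjusted p 0.0127 by limma). On days 1 to 4 their differences ran between -0.49 and -0.31 and did not pass the test. A further probe, linked through its description alone (TC270431), fell by 0.93 on day 5 (SE 0.29, adjusted p 0.0463 by limma). The member itself averaged -0.68 on that day. Without replicate 4 the call of A_15_P103937 was lost (adjusted p 0.057 by limma), that of A_15_P109901 was lost without replicate 1 or 4 (0.0782 and 0.254), and that of TC270431 was lost without any 1 of the 4 replicates (0.0887 to 0.221).

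The pbx1a member averaged -1.38 on day 3, whereas the 2 other pbx1a probes differed by -0.25 (SE 0.12, A_15_P117075) and -0.02 (SE 0.15, A_15_P113250) on that day. On day 5, A_15_P113250 had log2 ratios of -1.52, -1.18, -1.47 and -1.58 in TCDD embryos, against -0.92, -0.99, -0.98 and -0.83 in DMSO embryos, and fell by 0.51 (SE 0.15, adjusted p 0.0315 by limma). That call was lost without any 1 of the 4 replicates (adjusted p 0.0527 to 0.232 by limma), with normexp background correction and loess (0.0546) and with the embryo channel alone (0.0964). A_15_P117075 differed by -0.37 on day 5 (SE 0.12, adjusted p 0.071 by limma). With the replicate number as a block both probes were lower on day 5, with adjusted p of 0.0156 for A_15_P117075 and 0.014 for A_15_P113250 by limma. All 3 probes were higher on day 5 than on day 1 in DMSO embryos by limma, by log2 differences of 1.07 for the member, 1.42 for A_15_P117075 and 1.35 for A_15_P113250.

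Among the arnt2 probes, the member comes from an mRNA described as type 2c and alternatively spliced. Its day 3 log2 ratios were -0.41, -0.37, -0.29 and -0.17 in TCDD embryos, against 0.47, 0.44, 0.50 and 0.18 in DMSO embryos. These groups did not overlap, which the choice of members favours. A second arnt2 probe, A_15_P105040, had -1.47, -1.66, -1.46 and -1.46 in TCDD embryos on that day, against -0.64, -1.16, -1.01 and -0.99 in DMSO embryos. It fell by 0.56 on day 3 (SE 0.15, adjusted p 0.0276 by limma), but with the embryo channel alone, normalized between arrays, its day 3 value was 0.04, so its direction changed under that setting. The call was also lost without any 1 of the 4 replicates (adjusted p 0.0926 to 0.187 by limma) and with normexp and loess (0.0509). A further probe, A_15_P108122, differed by -0.65 on day 2 and -0.51 on day 3 and by 0.00 on day 5, with no day past the test. Its day 5 log2 ratios were -0.93, -1.14, 0.43 and -0.70 in TCDD embryos, against -0.59, -0.65, -0.76 and -0.34 in DMSO embryos. The TCDD value of replicate 3 thus lay above every DMSO value, whereas in each other replicate TCDD lay below DMSO.

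The 2 other heg probes lay below 0 without passing the test. A_15_P119769 had a mean difference of -0.38 and was below 0 in 17 of 19 pairs, and A_15_P104295 had -0.36 and was below 0 in 14 of 19. The pair differences of the heg member ran between -0.86 and -0.18.

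Other probes on the opposite side of 0 from their member were 21 of the 42. The 3 other nipa2 probes were all above 0 on average. Of these, A_15_P104635 was higher with TCDD by 0.42 on day 5 (SE 0.11, adjusted p 0.0189 by limma) and A_15_P121127 by 0.66 on day 3 (SE 0.18, adjusted p 0.0416 by limma), the last with 0 of 19 pairs below 0, whereas the nipa2 member averaged -0.43. The first of these calls was lost without replicate 1, 3 or 4 (adjusted p 0.0537 to 0.284 by limma), and the second without replicate 1, 2 or 3 (0.0538 to 0.301) and with normexp and loess (0.0806). The nipa2 probe A_15_P121127 was also among the 16 probes that met the rule turned round. For TC293457 the linked probe zgc:101540 was higher by 0.39 on day 3 (SE 0.10, adjusted p 0.0335 by limma), and the member averaged -0.40 on that day. This call was lost without any 1 of the 4 replicates (adjusted p 0.0958 to 0.263 by limma), with normexp and loess (0.119), with median centring (0.0529) and with the embryo channel alone (0.295). The 2 other dnajc7 probes had differences between -0.07 and 0.07 on all days, with standard errors of 0.08 and 0.10 on day 5, and the dnajc7 member averaged -0.48. The 2 other atp5mc1 probes differed by between -0.18 and 0.08 on all days, and the atp5mc1 member averaged -0.66. The second probes of cip2a, CHCHD4, selenoprotein T and sox7 had mean differences of 0.04, 0.05, 0.06 and 0.15. The 3 other sfpq probes had mean differences of -0.10 (A_15_P106916), 0.08 (A_15_P100468) and 0.35 (A_15_P107968). None of them passed the test on any day, whereas the sfpq member averaged -0.70.

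**Figure D3:**
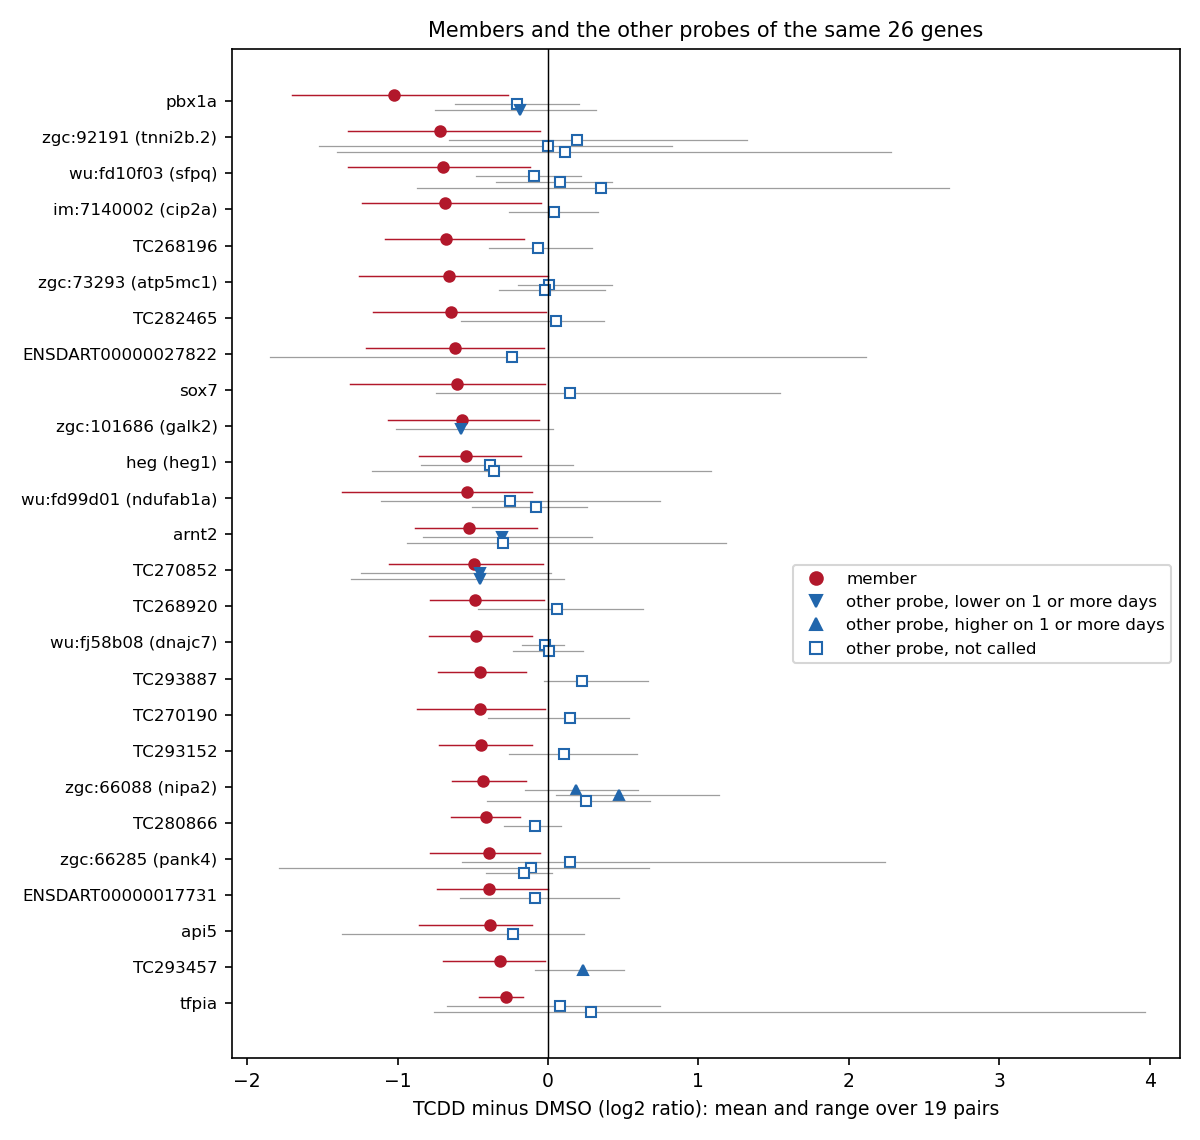
TCDD minus DMSO difference (horizontal axis, log2 ratio; mean and range over 19 pairs) of the 26 members whose gene has another probe (circles) and of the 42 other probes (filled triangles where called on at least 1 day by limma, open squares otherwise). The members lie between -1.02 and -0.28 and the other probes scatter around a median of -0.01, with galk2 and TC270852 (Dedd1) the genes whose other probes sit beside their member.

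A wider search through descriptions, made after the values were seen, linked 7 more probes. Of these, 1 was lower (the Dedd1 probe above) and 2 were higher, namely cathepsin L a probes A_15_P103675 and A_15_P103014, by 0.83 (SE 0.18, adjusted p 0.00291 by limma) and 0.99 (SE 0.22, adjusted p 0.00433 by limma) on day 5. Without replicate 4 neither passed (adjusted p 0.0956 and 0.0543 by limma), nor did A_15_P103675 without replicate 1 (0.0667). The vitellogenin 1 cluster could be set against 38 other probes described as vitellogenin 1, of which 21 were detected on all arrays. Of the 38, 0 were called lower and 0 higher by limma on any day, and 5 were lower and 8 higher on at least 1 day at an unadjusted p below 0.05. The mean differences of the 21 ran between -0.21 and 0.25 with a median of 0.03, whereas the member averaged -0.68.

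Change between days without TCDD was tested in DMSO embryos, whose arrays are also the controls of the chosen contrast. Over days 1 to 5, 70 of the 103 members differed between days by limma's moderated F-test, where 49.9% of all probes did. With the embryo channel alone the count was 44 of the 103, where 51.6% of all probes differed. On day 5 relative to day 1, 67 members were higher, where 21.3% of all probes were, and 7 were lower, where 25.5% were. This split by direction was not repeated with the embryo channel alone. Members were detected on every array, whereas these shares cover all probes, detected or not, so members and background are not alike in detection. The median of the day 5 minus day 1 difference was 0.52 over members and -0.10 over detected probes. The largest rise, of 3.01, was that of Dedd1 (TC270852), and the lowest value, -1.23, that of api5. Within 1 log2 unit lay 90 of the 103 members. Whether the TCDD difference of the other probes depended on the day was tested with an interaction term, and 0 of 42 passed by limma (lowest adjusted p 0.931, with 0 of 42 also at an unadjusted p below 0.05).

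Member and other probe both passed the day 5 against day 1 test in DMSO embryos in the same direction for 17 of the 42 other probes and in opposite directions for 7. Taken alone, 16 of the 42 were higher on day 5 and 10 lower, and 67 of the 103 members were higher and 7 lower. No share over unlinked probes was computed, so the counts of 17 and 7 do not show agreement between probes of a gene. The tnni2b.2 member rose by 1.23 (SE 0.13), reaching 1.00 ± 0.19 in DMSO embryos on day 5, against -0.23 ± 0.18 in DMSO embryos on day 1 (SD, n = 4 each). Of its 3 other probes, A_15_P104996 and A_15_P121177 carry the gene's name, and A_15_P111290 was linked through a shared accession although its cluster (TC268215) is described as Elongation factor 1-alpha. On day 1 they were well above background on 0, 1 and 2 of the 4 DMSO arrays, so no size is given for their rise since that day. From day 2 on all 3 were detected on every array. In DMSO embryos A_15_P104996 had a mean log2 ratio of 7.48 on day 5, against 5.78 on day 2, and A_15_P121177 had 6.45 on day 5, against 4.76 on day 2. With TCDD those 3 probes had mean differences over all pairs between 0.00 and 0.19 and no day passed the test. These means include day 1, where A_15_P104996, A_15_P121177 and A_15_P111290 differed by 0.64, 0.09 and 0.72. The differences of all 3 were above 0 on days 2 and 3 and below 0 on days 4 and 5. On day 5 they were -0.18, -0.45 and -0.51 in the same order. The sfpq member rose by 0.45, whereas 2 other sfpq probes fell by 1.16 and 0.57. The CHCHD4 member rose by 0.54 and its linked probe zgc:100849 fell by 1.46. For Dedd1, by contrast, the member rose by 3.01 and the 2 other probes by 2.58 and 2.74.

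**Figure D4:**
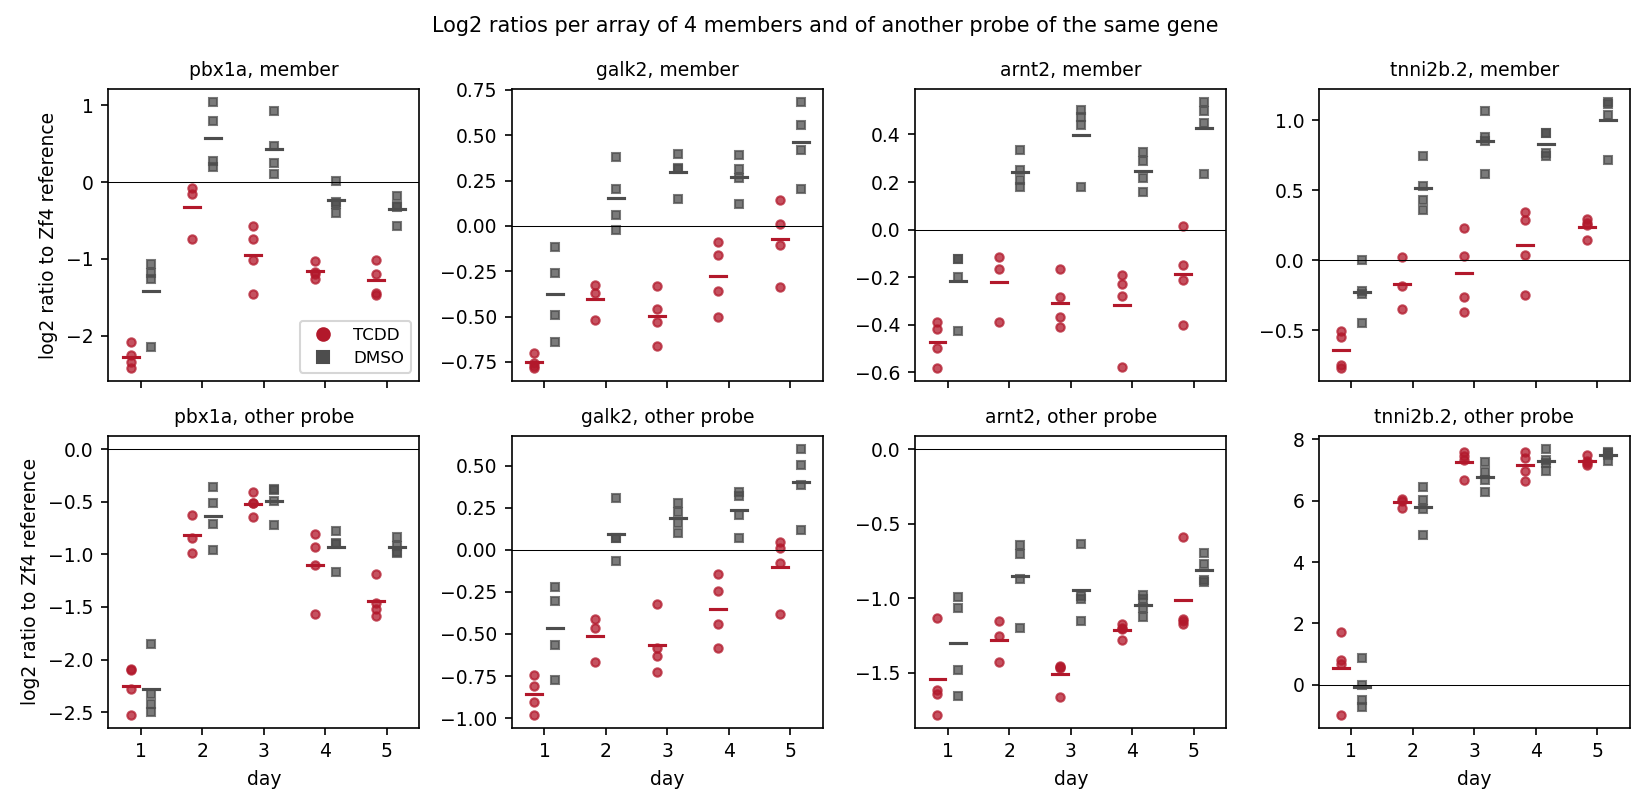
Log2 ratio to the Zf4 reference on each array (vertical axis, scaled to each panel) by day, for 4 members (top) and another probe of the same gene (bottom), with TCDD as circles left of DMSO as squares and bars at group means of 4 arrays (3 for TCDD on day 2). The galk2 probes run alike, and the tnni2b.2 member rises by 1.23 in DMSO embryos between days 1 and 5, whereas the other tnni2b.2 probe was well above background on 0 of 4 DMSO arrays on day 1 and averaged 7.48 on day 5.

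The members varied together between arrays of a single group. After group means were removed, the median Pearson correlation over the 5253 pairs of members was 0.502 across the 19 TCDD arrays and 0.514 across the 20 DMSO arrays, and over pairs of detected probes it was 0.017 across TCDD arrays and 0.013 across DMSO arrays. Values above 0.3 made up 73.6% of member pairs in TCDD arrays and 79.1% in DMSO arrays, whereas 21.1% and 19.4% of detected pairs reached that value. These correlations share arrays, hybridizations and RNA. The members were also chosen by values of the same arrays, which the detected probes were not. The correlations are therefore given as a description. Against the median of the other members, the members had a median r of 0.729 in DMSO arrays, with 78 at 0.6 or higher. The highest were the clusters TC285035 (0.952), TC283059 (0.942) and TC290157 (0.926), and the lowest were CD606048 (0.215), BM778542 (0.231), pank4 (0.232) and ndufab1a (0.246). The other probes of member genes had a median r of 0.07 with their member in DMSO arrays, and 2 of the 42 reached 0.6.

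**Figure D5:**
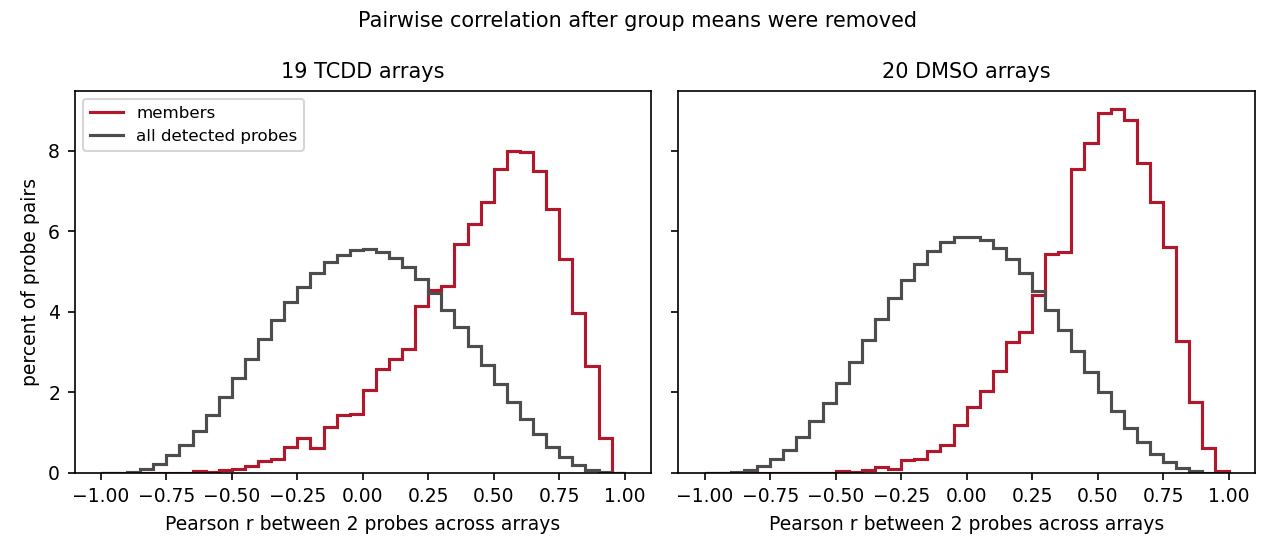
Distribution of the Pearson correlation between 2 probes (horizontal axis) as percent of probe pairs (vertical axis), after group means were removed, in 19 TCDD arrays (left) and 20 DMSO arrays (right), for pairs of members and pairs of detected probes. Member pairs centre on 0.502 and 0.514, and detected pairs centre near 0.

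Relatives of the named members were mostly not called. Symbols that share a stem with a named member covered 23 measured genes in the efna, elovl, esr, pbx and sox families, with a median mean difference of -0.11. Of these, 2 were lower on at least 1 day and 0 were higher by limma, where 3.31% of all probes were lower and 4.54% higher. At an unadjusted p below 0.05 the counts were 8 lower and 1 higher of 23, where 15.8% of all probes were lower and 19.7% higher. The fatty acid elongase elovl6 fell by 0.36 on day 5 (SE 0.11, adjusted p 0.0372 by limma) and the neural factor sox11b by 0.41 (SE 0.11, adjusted p 0.0252 by limma). The count of 2 became 0 without replicate 1 or without replicate 4, and 1 without replicate 3. The other estrogen receptor esr2b had a mean difference of -0.02, against -0.61 for the esr1 member. The esr2a probe had 0.10 but was well above background on only 6 arrays, so its value cannot show whether esr2a changed. The genes pbx3b and pbx4 had -0.11 and -0.16, against -1.02 for the pbx1a member. Detection was also rare for sox21b, sox17, efna5a, sox32 and sox8, with probes well above background on 0, 1, 4, 7 and 14 arrays. Their missing calls do not show that these genes were unchanged.

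On the AHR pathway list, which includes the arnt2 member, calls of the other genes were in the other direction. Of 12 measured genes on that list, 4 were higher with TCDD on at least 1 day by limma, namely cyp1a on 5 days, the transcription factor foxq1b on 4, the receptor ahr2 on 2 and the quinone reductase nqo1 on 1. The mean difference of ahr2 was 0.55, against -0.53 for the arnt2 member, whose low value follows from the choice of members. The other 7 measured genes passed in neither direction. With any 1 replicate left out 3 of the 4 were called.

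Marker genes of 15 tissue and process lists were read beside the members, since pooled whole embryos hold all these tissues. Of 172 measured genes, 9 were lower and 10 higher with TCDD on at least 1 day by limma, and the 9 include esr1, which is a member. Over all probes 3.31% were lower and 4.54% higher on at least 1 day. None of the 172 was called on day 1, and most calls fell on day 5. Of all probes, 0.00931% were lower on day 1 and 2.63% on day 5. The 19 calls became 10 without replicate 1 and 11 without replicate 4. Neural progenitor genes counted 4 lower of 26 measured (pax6a, pax6b, nr2f1a and nr2f2) and neurons 1 lower of 11 (tubb5). Photoreceptor, erythroid, cardiac, cartilage, pigment and lens genes counted 0 lower and 0 higher, of 13, 10, 8, 9, 4 and 9 measured, and of these 53 genes 14 had an unadjusted p below 0.05 on at least 1 day, where 34.6% of all probes did. Neutrophil and macrophage genes counted 4 higher of 7, among them mpx on 3 days, and liver genes 3 higher of 14. Exocrine pancreas had 1 lower of 9, DNA replication 2 lower of 12, fast muscle 1 higher of 18 and epidermis 2 higher of 12. The part of such tissue shifts in the falls of the members was not tested.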

How the data were processed

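Two-colour Agilent zebrafish arrays (39 arrays, 19 TCDD and 20 DMSO) compared pooled embryo RNA (Cy5) with Zf4 RNA (Cy3). Per the file headers and the submitters' processing notes, the authors extracted spot intensities with Agilent Feature Extraction 8.1.1, subtracted background with spatial detrending and normalized the dyes by linear and lowess steps, and deposited a log10 ratio of embryo to reference intensity per spot. No normalization between arrays was applied. The deposited log10 ratios were multiplied by 3.3219 to give log2 ratios. The deposited series table held the same values and was not needed. The build is not given in the sources used here, so no coordinates are printed, and 5592 of 6043 RefSeq accessions on the array were matched to current symbols of the assembly GRCz12tu.

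Differences were taken between arrays of the same replicate and day. Tests used limma 3.58.1 in R 4.3.3 on all 21495 non-control probes, with 10 group means, outlier spots set to missing and Benjamini-Hochberg adjusted p below 0.05 within each contrast, and the script was tested on simulated data. Adjusted p-values named in the text come from this fit unless another setting is named beside them. Where a gene of a list or family had several probes, 1 probe was used. The members, lists and tests were chosen with earlier results of these data known. All members but 1, which is not reported here, are named, with array values for members of large fall or with other probes, the 3 nearest on each side of a threshold, all called other probes, and list genes called on 3 or more days. Genes named for 1 or 2 days, and probes linked by description, were chosen after their values were seen. The methods state that each replicate was an independent experiment, so replicate numbers pair arrays. Deviations of same-numbered TCDD and DMSO arrays of a day correlated at a median r of 0.231 (-0.133 to 0.397, n = 19) and those of different numbers at -0.067. Python 3.11.15 with pandas 2.3.3 and matplotlib 3.10.9 did the remaining steps. Alternatives covered background correction, scaling, channel, replicates, replicate block, scan batch, array weights, outlier spots, detection and thresholds.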

Additional observations from a re-analysis of the deposited data

Results flagged for a closer look

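Among 69 sets of 4 values examined, 3 had a value far from the others, and chance alone would mark about 1 in 20. The median log2 ratio over members was -0.87 on the TCDD array of day 1, replicate 3, against -0.71 to -0.68 on the other TCDD arrays of that day. The median TCDD minus DMSO difference over members was -0.73 in the day 5 pair of replicate 2, against -0.56 to -0.53 in the other day 5 pairs. The day 1 difference of BI865715 was -0.11 in replicate 2, against -1.03 to -0.89 in the other replicates, and that pair also had the median over members closest to 0.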

How the results depend on the processing

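The number of probes meeting the rule was 103. It was 54 with normexp background correction and loess, of which 50 were members, and ran between 97 and 235 when a replicate experiment was left out, the 235 without replicate 2. The rule turned round gave 16. Scaling, the embryo channel alone, outlier handling, detection and the thresholds of -0.1 and -0.3 gave counts between 70 and 129, and 43 of the 70 probes with the embryo channel alone were members. The median mean difference was -0.57, and -0.38 with normexp and loess. The mean was below 0 for all 103 members under each of the 4 other normalizations, but the difference stayed below 0 in all pairs for 73 with normexp, 82 with quantile scaling, 88 with median centring and 46 with the embryo channel alone. The cause of these differences was not tested.

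Of the 42 other probes, 5 were lower. The count was 3 with normexp, 3 with the embryo channel alone, 8 with array weights and between 1 and 4 with a replicate left out (1 without replicate 4, 2 without replicate 1). The 3 higher probes became 0 to 1 with a replicate left out. The day 3 difference of the arnt2 probe A_15_P105040 was 0.0358 with the embryo channel alone. The 14 called results of other probes, those linked by description included, had 181 alternative values. Of these values, 130 stayed past the threshold in the same direction, 50 did not pass and 1 changed sign. The 2 lower family genes were 4 with normexp, 1 with quantile scaling, 1 with median centring, 1 with the embryo channel alone and 0 to 2 with a replicate left out (0 without replicate 1 or 4). The 70 members that differed between days in DMSO embryos were 44 with the embryo channel alone, where 51.6% of all probes differed. The 5 called AHR genes, of which arnt2 is a member chosen by the same differences, were 4 in each fit with a replicate left out, and the 19 called tissue genes, esr1 among them, 10 to 16 (10 without replicate 1, 11 without replicate 4).

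With the replicate number as a block, as the pairing implies, 6 other probes and 3 family genes were lower, 77 members differed between days, and 5 AHR and 24 tissue genes were called. Over all probes, 4.79% were lower on at least 1 day with the block, 11.7% were called in either direction and 53.0% differed between days, where 3.31%, 7.85% and 49.9% did without it. All 14 called results of other probes, those linked by description included, passed with the block. In scan batch 2 alone, an alternative chosen after seeing the data, 3 other probes were lower and 66 members differed between days. The promoter motif comparison listed among the alternatives was not run, because no promoter sequence was used here. With 3 or 4 arrays a group, small differences of other probes can go uncalled.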
